A study of Mus musculus with 6 samples.

Results

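The genes described here encode the subunits of Mediator and Integrator, 2 large protein complexes that work with RNA polymerase II. Members were the rows of the deposited gene table whose symbol is Med or Ints followed by a number, with the Med12l and Med13l paralogs, and the kinase module genes Cdk8, Cdk19 and Ccnc. This gave 47 of the 55401 genes of the table, 33 of Mediator (26 of the core and 7 of the kinase module) and 14 of Integrator. All 47 had an adjusted p-value and so were among the 16773 tested genes. The members were picked out by name, but the naming rule was chosen with earlier results of these data known.

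Mediator is a coactivator that bridges DNA-bound transcription factors and RNA polymerase II at promoters. It is built from a head, a middle and a tail around the Med14 scaffold, and it can be joined by a dissociable kinase module that holds CDK8 or CDK19. Integrator cleaves nascent RNA with an endonuclease and carries a protein phosphatase, and it is known for forming the ends of small nuclear RNAs (snRNAs) and for ending transcription by polymerase II soon after initiation.

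RNA was compared between immortalised mouse embryo fibroblasts (iMEF) kept for 24 h with dTAG-13 and the same cells left untreated. In both groups exon 4 of the floxed endogenous Ash2l had been deleted through an inducible Cre-ER, and the cells carried instead, from a lentiviral construct, human ASH2L with an N-terminal degradation tag made from a mutant FKBP12. ASH2L is a shared subunit of the KMT2 complexes that methylate lysine 4 of histone H3, and dTAG-13 is a PROTAC that links the tag to the ubiquitin ligase subunit Cereblon so that the fusion protein is degraded. The comparison was made in the single clone NG3, without RNA of untagged cells given dTAG-13, so effects of the compound itself and of ASH2L loss cannot be told apart here. The labels list 3 dTAG-13 and 3 untreated libraries, the study's description of the comparison gives fewer replicates per group, and the deposited mean counts below 1.2 were whole-number combinations of 5 values of a single read, within 1e-09. Each library gives at most 1 such value, so the means rest on at least 5 libraries.

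Each gene of the table has a mean normalized count across the libraries of both conditions. It also has the authors' test of dTAG-13 against untreated cells, as a shrunken log2 fold change with standard error (SE), p and adjusted p, and no values per library. The depth of each library is therefore unknown, the level in each group cannot be shown, and the SE given by the authors is the error of each change. A gene is said to have risen, fallen or changed where the adjusted p of the authors' DESeq2 test (Benjamini-Hochberg) was under 0.05. Of all tested genes, 19.9% changed, 12.5% towards lower and 7.45% towards higher RNA. All 8 fibroblast markers had reads, with mean counts of 66.5 to 109792, while 3 of 4 epithelial, 1 of 3 endothelial and 1 of 3 blood markers were at 0 and the other markers of these types reached at most 25.4. The mouse Ash2l gene, whose product is not the degraded protein, had a log2 fold change of -0.12 ± 0.20 (SE, adjusted p = 0.72 by DESeq2).

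Of the 47 members, 5 changed. In Mediator, Cdk19 and Med23 rose and 0 of 33 genes fell. In Integrator, Ints4 rose while Ints6 and Ints7 fell. In bulk RNA, fewer cells with a transcript and less of it per cell cannot be told apart. The share of members called was 6.06% in Mediator and 21.4% in Integrator, beside the 19.9% of all tested genes. The difference between both shares was not tested, because genes of a complex are not replicates of a condition.

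**Figure D1:**
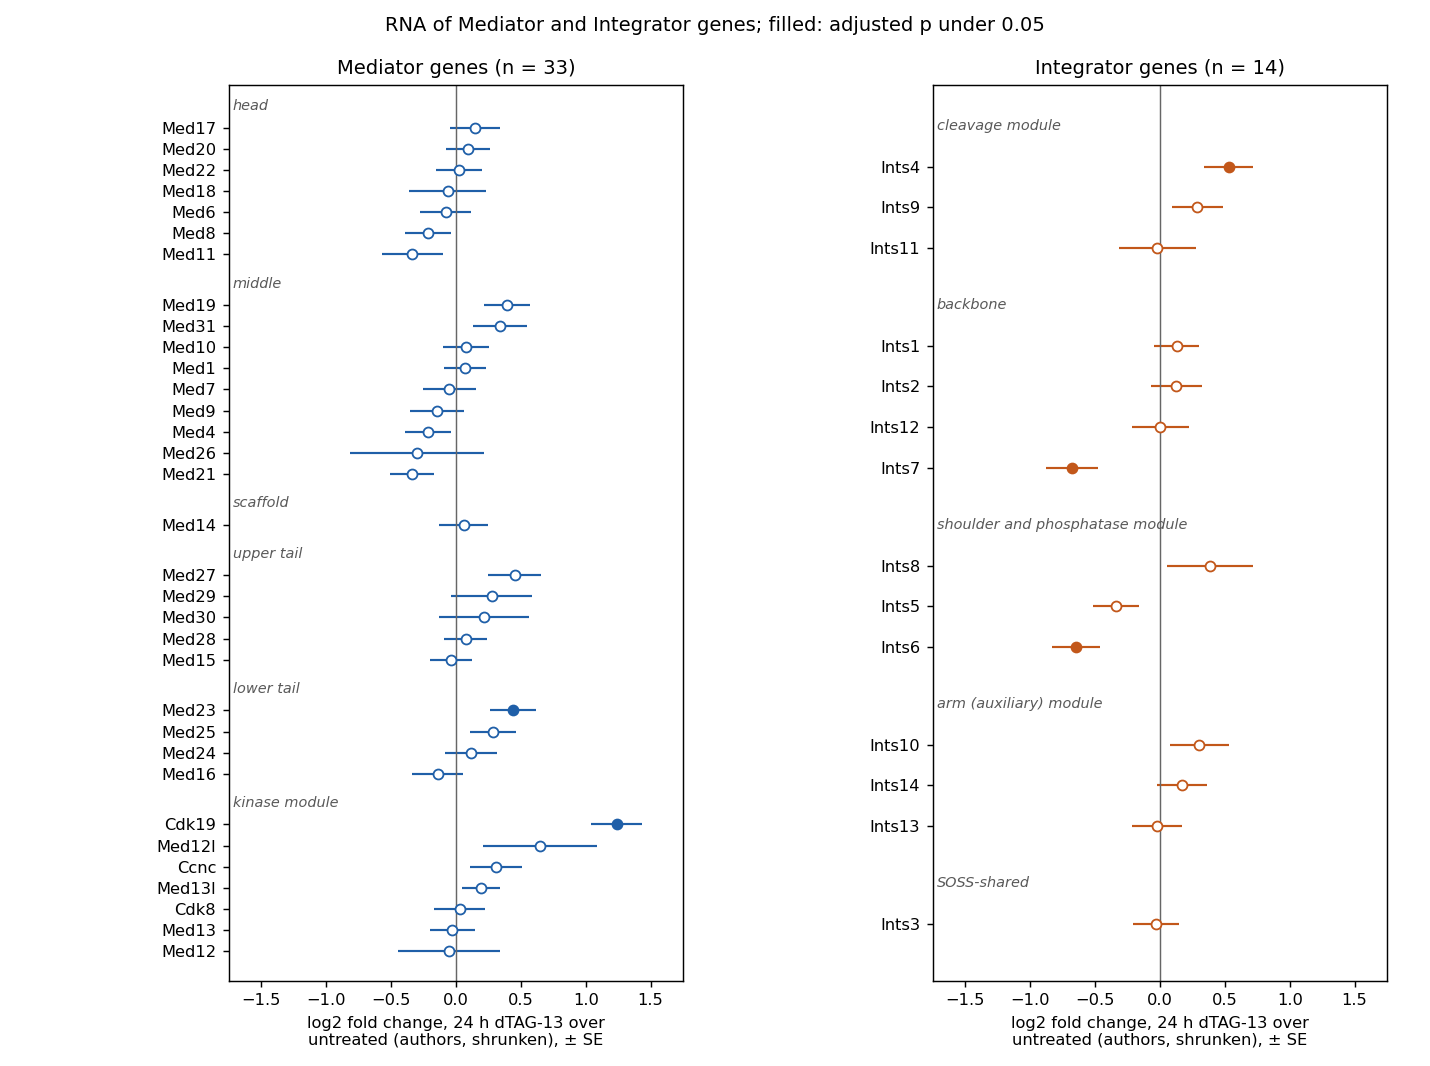
Shrunken log2 fold change (x axis, from the authors, dTAG-13 for 24 h over untreated) for the 33 Mediator genes (left) and the 14 Integrator genes (right), grouped by structural module, where bars are ± SE and filled points have an adjusted p under 0.05. Cdk19 at 1.24 is the point farthest from 0, and Ints6 and Ints7 are the only filled points on the negative side.

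The sequences in front of the 3 changed Integrator genes are shown because they were the changed members for which RefSeq promoter windows were given. Each is the part of a RefSeq window (build GRCm38.p6, 250 bases before to 50 after the start) that lies upstream of both the RefSeq and the GENCODE start, read 5′ to 3′ on the strand of the gene. Ints7 is chr1:191575386-191575635 (+), Ints6 is chr14:62761170-62761362 (−) and Ints4 is chr7:97480706-97480955 (+). Capitals mark the letters CCAAT, the core of the element bound by the factor NF-Y, or ATTGG, which is CCAAT on the other strand.
Ints7: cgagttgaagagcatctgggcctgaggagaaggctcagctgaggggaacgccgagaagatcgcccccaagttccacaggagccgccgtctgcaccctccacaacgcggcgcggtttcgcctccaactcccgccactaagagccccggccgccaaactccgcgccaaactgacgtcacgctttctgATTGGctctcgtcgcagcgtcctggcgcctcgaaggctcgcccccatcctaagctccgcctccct
Ints6: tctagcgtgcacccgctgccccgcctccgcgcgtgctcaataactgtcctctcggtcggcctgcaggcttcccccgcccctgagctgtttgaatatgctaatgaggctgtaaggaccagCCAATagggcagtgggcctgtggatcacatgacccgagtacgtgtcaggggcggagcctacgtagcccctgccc
Ints4: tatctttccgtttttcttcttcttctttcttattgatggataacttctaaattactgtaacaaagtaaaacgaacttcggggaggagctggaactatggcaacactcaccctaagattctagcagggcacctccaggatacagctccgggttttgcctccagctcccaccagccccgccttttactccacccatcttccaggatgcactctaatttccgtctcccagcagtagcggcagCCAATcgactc
Each of these stretches held 1 match, which ended 60 bases before the end of the stretch in Ints7, 69 bases in Ints6 and 6 bases in Ints4. Both genes that fell and the gene that rose thus shared the letters.

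Windows were matched by symbol for 38 of the 47 members, with 11 windows for 10 Integrator genes and 32 windows for 28 Mediator genes. CCAAT on either strand was present in 8 of the 10 Integrator genes (80%) and in 11 of the 28 Mediator genes (39.3%), beside 43% of 10872 tested genes with a window. Counted by window, this was 81.8% for Integrator, 37.5% for Mediator and 37.7% for tested genes. The 2 windows of Ints14 overlap each other, as do windows of Med7 and of Med15. The 2 Integrator genes without the letters were Ints1 and Ints12, whose windows held CCGGAAG, the letters searched for ETS factors.

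Of the other letters searched on both strands, CCGGAAG stood in 18.2% of Integrator, 28.1% of Mediator and 16.3% of tested windows, and GCGCATGC, the letters for NRF1, in 18.2%, 12.5% and 4.84% of the same sets. The E-box CACGTG was found in 0 Integrator windows, in 12.5% of Mediator windows and in 9.68% of tested windows, and AAGATGGCG, the letters for YY1, in 0 windows of either complex and 2.76% of tested windows. The median GC content was 60.3% in Integrator, 57.8% in Mediator and 60.3% in tested windows. A match is a description of the letters only, and with 11 Integrator windows each one moves a share by several percentage points.

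The kinase module phosphorylates other parts of the transcription machinery and controls whether Mediator can bind polymerase. Cdk19 (ENSMUSG00000038481.13, GRCm38 chr10:40339564-40483818, + strand), which encodes one of its 2 alternative kinases, rose 2.36-fold in dTAG-13 cells relative to untreated cells. Its log2 fold change was 1.24 ± 0.20 (SE, adjusted p = 2.1e-09 by DESeq2), with a 95% interval of 0.85 to 1.63 and a mean normalized count of 375. It was the member with the largest change in either complex.

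Cdk8, the kinase that takes the same place as CDK19 in the module, had a log2 fold change of 0.03 ± 0.20 (DESeq2 adjusted p = 0.94) at a mean normalized count of 169. Its 95% interval, -0.36 to 0.41, lies below that of Cdk19, and the difference between both genes was not tested for lack of values per library. Ccnc, the cyclin C that activates either kinase, had 0.31 ± 0.20 (DESeq2 adjusted p = 0.24). The kinase pair therefore differed in its call, while their shared cyclin did not pass the test.

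The remaining module genes are the large subunits Med12, which activates the kinase, and Med13, which links the module to the core, each with a paralog. Med12l had a log2 fold change of 0.65 ± 0.44 (DESeq2 adjusted p = 0.11, mean count 37.0) and Med12 one of -0.05 ± 0.39 (adjusted p = 0.90, mean count 7.56). Med13l had 0.19 ± 0.15 (DESeq2 adjusted p = 0.39, mean count 1752) and Med13 had -0.03 ± 0.17 (adjusted p = 0.94, mean count 610). None of these 4 passed the test. The estimates of Med12l and Med12 were imprecise at their low counts, and their 95% intervals of -0.21 to 1.51 and -0.82 to 0.71 leave changes of more than 1.5-fold possible.

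Reads of paralogs could be exchanged where the transcripts are identical, so the longest stretch that each pair shares without a mismatch was searched in the GENCODE M21 transcripts on the same strand. The stretches are shown because the paralogs of 2 pairs carry different calls, and all lie in coding sequence.
Cdk19 and Cdk8: gcagatttggatccagtggttgt
Med12l and Med12: tgtgaatgggctgtaagctgcaaa
Med13l and Med13: aatggcctttcctatgaatg
Ints6l and Ints6: gaaccttttcgttgggatca
They were 23, 24, 20 and 20 bases long, shorter than the 75 cycles given in the study's methods. The labels differ from the methods on read length. Reads that align to a paralog with mismatches were not examined.

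**Figure D2:**
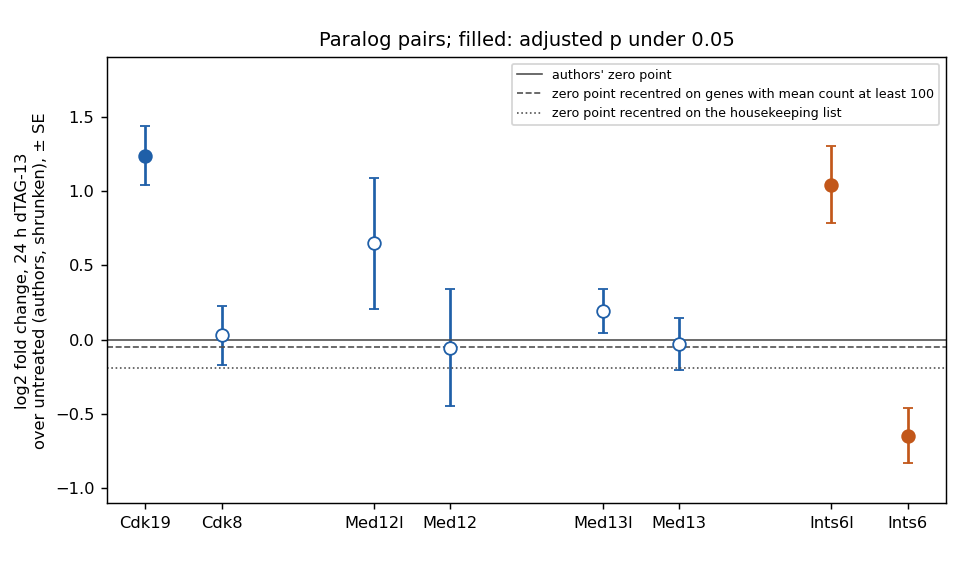
Shrunken log2 fold change (y axis, from the authors, dTAG-13 over untreated, ± SE) for 4 paralog pairs, with filled points for an adjusted p under 0.05 and horizontal lines for the authors' zero point and 2 recentred ones at -0.05 and -0.19. Cdk19 (1.24) and Ints6l (1.04) lie above every line and Ints6 (-0.64) lies below every line, while Cdk8, Med12, Med12l, Med13 and Med13l are open points.

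In the Mediator core, 1 of 26 genes changed (3.85%), beside 19.9% of all tested genes. Single modules hold few genes, so their counts are given without a test against this share. Med23 (ENSMUSG00000019984.16, chr10:24869986-24913681, + strand), a tail subunit known as a docking site for activated ELK1 and for the adenoviral activator E1A, rose 1.36-fold, with a log2 fold change of 0.44 ± 0.18 (SE, adjusted p = 0.040 by DESeq2) and a mean count of 276. Its 95% interval ran from 0.09 to 0.79. The call rested on the authors' filter on low counts, since the adjusted p was 0.058 when all 24212 genes with a p-value were included.

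None of the other tail subunits, which receive many of the activators, passed the test. Med16 was the lowest gene of the lower tail at -0.14 ± 0.20. In the upper tail, Med15 was lowest at -0.04 ± 0.16 and Med27 highest at 0.45 ± 0.20, with a DESeq2 adjusted p of 0.061 that missed the threshold. In all, 0 of 5 upper tail genes passed the DESeq2 threshold, beside 19.9% of all tested genes, and 1 had an unadjusted p under 0.05. The medians were 0.22 in the upper and 0.20 in the lower tail.

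The head and the middle are the modules that touch polymerase II. They had 0 of 16 genes past the DESeq2 threshold, beside 19.9% of all tested genes. In the head the values ran between -0.34 ± 0.24 for Med11 and 0.15 ± 0.19 for Med17, with a median of -0.06 and 0 of 7 genes at an unadjusted p under 0.05. In the middle they ran between -0.34 ± 0.17 for Med21 (adjusted p = 0.11 by DESeq2) and 0.39 ± 0.18 for Med19 (adjusted p = 0.066), with a median of -0.05. Med21 and Med19 were the 2 middle genes with an unadjusted p under 0.05, and they pointed in opposite directions. Med14, the scaffold that connects all of them, had 0.06 ± 0.19 (adjusted p = 0.88).

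Integrator held changes of both signs. Ints7 (ENSMUSG00000037461.10, chr1:191575636-191623688, + strand), a helical repeat subunit of the backbone, was 1.60 times lower in dTAG-13 than in untreated cells, with a log2 fold change of -0.68 ± 0.20 (SE, adjusted p = 0.0022 by DESeq2) and a mean count of 296. Ints6 (ENSMUSG00000035161.7, chr14:62676330-62761169, − strand), which helps to hold protein phosphatase 2A in the complex, was 1.56 times lower, with -0.64 ± 0.18 (adjusted p = 0.0015) and a mean count of 499. Their 95% intervals were -1.07 to -0.28 and -1.01 to -0.28. Both were called lower under every alternative that was run.

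Ints4 (ENSMUSG00000025133.9, chr7:97480956-97541395, + strand), the scaffold on which the cleavage module assembles, rose 1.44-fold, with a log2 fold change of 0.53 ± 0.19 (SE, adjusted p = 0.014 by DESeq2) and a mean count of 621. Its partners are Ints11, the endonuclease that cuts the RNA, and Ints9, its inactive relative. Ints11 had -0.02 ± 0.30 (adjusted p = 0.97, mean count 33.5) and Ints9 had 0.29 ± 0.19 (adjusted p = 0.27). The module therefore had 1 of 3 genes past the test, beside 19.9% of all tested genes, and its median was 0.29.

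The shoulder and phosphatase module spanned the widest range of the Integrator modules, with Ints6 at its lower and Ints8 at its upper end. Ints8, which contacts the phosphatase, had 0.38 ± 0.33 (DESeq2 adjusted p = 0.30), and Ints5 had -0.34 ± 0.18 (adjusted p = 0.13). In the backbone the highest gene was Ints1, the large scaffold subunit, at 0.13 ± 0.17, followed by Ints2 at 0.13 ± 0.20 and Ints12, a subunit with a PHD finger, at 0.00 ± 0.22. Apart from Ints7, the backbone genes thus lay between 0 and 0.13.

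The arm module of Ints10, Ints13 and Ints14 binds nucleic acid. Where 19.9% of all tested genes passed the DESeq2 threshold, it had 0 of 3, and 0 at an unadjusted p under 0.05. Its values were -0.02 ± 0.19 for Ints13, 0.17 ± 0.19 for Ints14 and 0.30 ± 0.23 for Ints10. Ints3, which also belongs to the SOSS complex of single-stranded DNA binding, had -0.03 ± 0.18 (adjusted p = 0.93).

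As groups, the complexes are set side by side without a test of their difference. The median log2 fold change was 0.07 in Mediator and 0.06 in Integrator, beside -0.02 over all tested genes, and 20 of 33 Mediator and 8 of 14 Integrator genes had a positive value. The median size of the change without its sign was 0.15 in Mediator and 0.23 in Integrator. It was 0.20 over all tested genes and 0.25 over those with a mean count of at least 100. A change below 0.5 in either direction was found for 31 Mediator genes (93.9%) and 11 Integrator genes (78.6%). The share was 78.6% over all tested genes and 76% over those with a mean count of at least 100. Mediator values reached from -0.34 to 1.24 and Integrator values from -0.68 to 0.53.

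**Figure D3:**
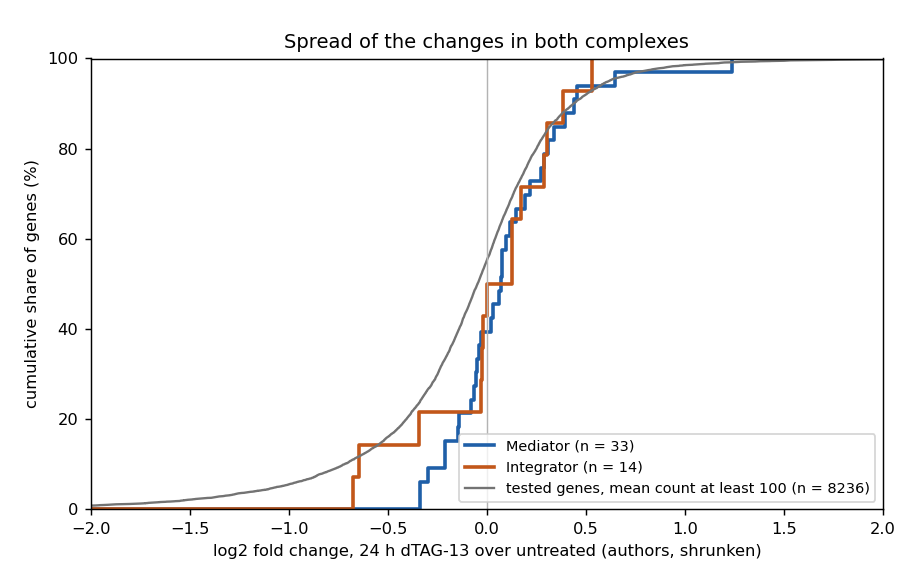
Cumulative share of genes in percent (y axis) by shrunken log2 fold change (x axis, from the authors, dTAG-13 over untreated) for Mediator (n = 33), Integrator (n = 14) and the 8236 tested genes with a mean count of at least 100. The Mediator curve begins at -0.34 and ends at 1.24 with Cdk19, whereas the Integrator curve begins at -0.68 and the curve of all these tested genes has the longest tails.

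Because most members were well measured, the background was also taken from the 8236 tested genes with a mean count of at least 100, of which 27.6% changed, 18.1% towards lower and 9.49% towards higher RNA. Of the 28 Mediator genes at this level, 2 rose and 0 fell (7.14%), and of the 12 Integrator genes, 1 rose and 2 fell (25%). The Integrator share was near this background, while that of Mediator was below it. With 0 of 33 Mediator genes called lower by DESeq2, 1 had a negative value at an unadjusted p under 0.05, and 5 had a positive one. In Integrator, the corresponding counts were 3 and 1.

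**Figure D4:**
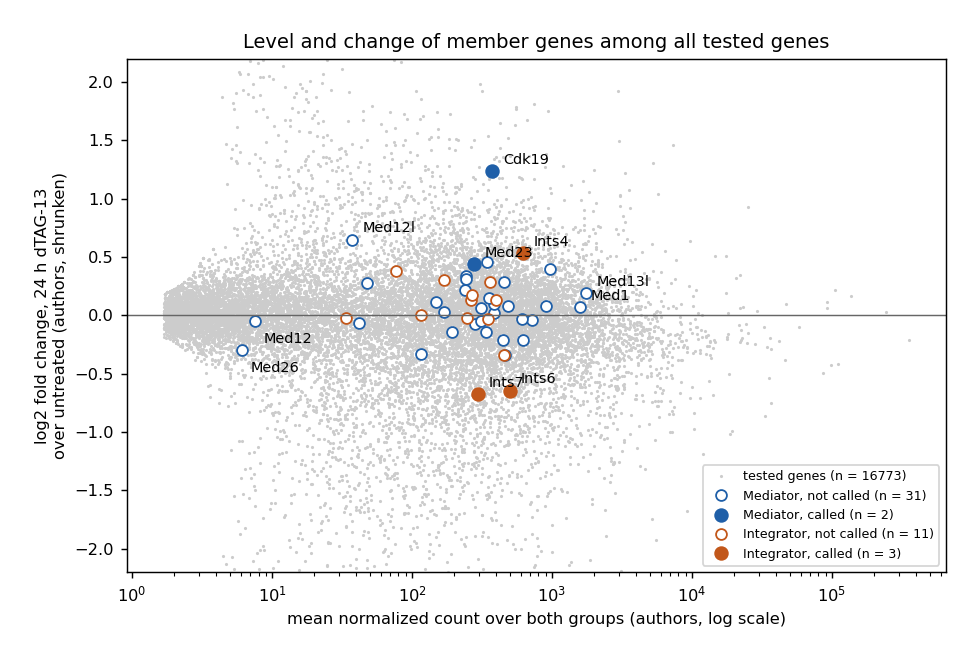
Shrunken log2 fold change (y axis, from the authors, dTAG-13 over untreated) against the mean normalized count over both groups (x axis, log scale) for 16773 tested genes (grey) and the members (blue Mediator, orange Integrator), with filled symbols for the 5 called members, and 359 tested genes lie beyond the y axis. The 5 called members have mean counts of 276 to 621, whereas Med12 and Med26 are the members with the lowest counts (7.56 and 6.09).

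For most genes without a call, the interval of the shrunken change lay within set bounds. Of the 31 Mediator genes that did not pass, 29 had a 95% interval inside a log2 change of 1 in either direction and 18 had one inside 1.5-fold. Of the 11 such Integrator genes, these counts were 10 and 6. Shrinkage limits the width of these intervals, also for genes with almost no reads. Cdk19os, with a mean count of 0.411, had -0.03 ± 0.44 and so also lay inside a log2 change of 1. The counts therefore do not show that larger changes were absent. The median SE was 0.20 in Mediator and 0.19 in Integrator. Med26, an elongation-linked subunit with a mean count of 6.09, was the least certain, at -0.30 ± 0.52.

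Proteins that work with Integrator but fall outside the naming rule were looked at as a list of 6. Ints6l, a paralog of Ints6 on the X chromosome, rose 2.06-fold, with a log2 fold change of 1.04 ± 0.26 (adjusted p = 1.2e-04 by DESeq2) and a mean count of 131. Ints6 and its paralog thus carried calls of opposite sign. The catalytic subunit Ppp2ca and the scaffold subunit Ppp2r1a of protein phosphatase 2A had -0.17 ± 0.15 (DESeq2 adjusted p = 0.49) and 0.29 ± 0.17 (adjusted p = 0.20). The SOSS partners of Ints3 did not pass either, with 0.24 ± 0.20 for Nabp2, -0.16 ± 0.20 for Nabp1 and -0.22 ± 0.20 for Inip. Of this list 1 of 6 genes changed, beside the 19.9% of all tested genes, and its median was 0.04. All 6 have a mean count of at least 100, where 27.6% of tested genes changed. With changes recentred on housekeeping genes, Ppp2r1a was also called higher (adjusted p = 0.019) and the median was 0.23. Of all tested genes, 13.8% were called higher with that zero point.

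Polymerase II itself, to which both complexes bind, had 0 of 12 subunit genes past the DESeq2 threshold and 1 at an unadjusted p under 0.05. Of all tested genes 19.9% passed, and 27.6% of those with a mean count of at least 100, where 11 of the 12 lie. The values of the 12 subunit genes ranged from -0.36 to 0.16, with a median of 0.05. The lowest was Polr2a, the largest subunit, at -0.36 ± 0.17 (adjusted p = 0.093).

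Neighbouring genes share exon bases with some members, and whether the counting used strand was not given in the sources used here. Exons of 19 members overlap a gene on the opposite strand and those of 6 a gene on the same strand. Among the changed members, Ints4 and Ints7 share none. Cdk19 shares 268 bases (4.58% of its exon bases) with the antisense gene Cdk19os, which had a mean count of 0.411, Ints6 shares 348 bases (2.07%) with Serpine3, listed at 0, and Med23 shares 107 bases with the snRNA gene Gm23410, listed at 0. The called members therefore had no well-counted neighbour on shared exons.

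Some genes that did not pass had neighbours that changed. Ints8 shares 609 bases (8.15%) with Ccne2, a cyclin E gene whose log2 fold change was -1.68 ± 0.22, Med21 shares 197 bases (5.59%) with Tm7sf3 (-1.78 ± 0.24), Ints12 shares 100 bases (1.26%) with Gstcd (-1.17 ± 0.21) and Med31 shares 455 bases (26.3%) with 4930563E22Rik (2.00 ± 0.67). Other members had counted neighbours that did not pass, among them the low-count Med12l and Med12. Med12l shares 1948 bases (15.3%) with Igsf10 on the opposite strand, which had a mean count of 186. Med12 shares 749 bases (9.72%) with Gm21986 on the same strand, which had a mean count of 2.26. The part of such reads in these members' values was not tested.

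The zero point of all changes comes from the spike-in scaling of the authors, and the counts of higher genes moved with it. Of the genes called, 62.6% were lower in dTAG-13 cells. When the changes were recentred on the median of the tested genes with a mean count of at least 100, a shift of -0.05, this share was 56.8%, and it was 39.1% when they were recentred on 15 housekeeping genes, a shift of -0.19. The housekeeping genes themselves leaned towards lower RNA, with 14 of 15 values negative and 2, Ppia and Actb, called lower by DESeq2, and they include Polr2a and the general factor gene Tbp. Mediator had 4 and 9 higher genes with these 2 zero points, and 0 lower genes under either, and Integrator had 1 and 2 higher genes beside the same 2 lower ones. Both shifts raise every value, which works against lower calls. Of all tested genes, 8.5% and 13.8% were called higher with these zero points, and 11.2% and 8.84% were called lower. Under the housekeeping zero point the medians were 0.26 in Mediator, 0.25 in Integrator and 0.17 over all tested genes. The sign turned for 5 and 11 members, none of which was called.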

How the data were processed

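RNA of iMEF cells was sequenced after 24 h of dTAG-13 and without treatment, as the sample titles state (the treatment protocol lists shorter times only). According to the study's methods, the authors used Trim Galore for trimming, STAR for alignment to mm10 and featureCounts for counting, normalized to ERCC spike-in RNA and compared groups with DESeq2, with apeglm for shrinkage. The labels also name BWA, SAMtools, MACS2 and deepTools, without versions. The library kit is a stranded one for total RNA in the labels and a 3′ mRNA one in the methods.

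The deposited signal (linear scale) is a mean normalized count over both groups. Deposited log2 fold changes are the authors' shrunken values, with their SE as deposited, also on the log2 scale. The deposited p-value and adjusted p-value are those of the authors' test, and no per-library column was in the table. Every fold change, SE and p-value printed is therefore the authors' own, except recentred ones. The lists of lower and higher genes were not used, since they repeat rows of the full table.

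Members and lists were chosen with earlier results of these data known. Text values were given for called members, the kinase and cleavage modules, paralog pairs, and the lowest and highest gene of other modules. In the other lists, called genes were named, at most 2 per direction, and the Integrator partners in full. Outside that rule, genes were named after their values were seen: Ints5, Ints14, Ints2, Ints12, Med25, Med26, Med31, Polr2a, Clp1, Ice2, Snapc3, Pou2f1 and overlapping neighbours. Recentred p-values came from the signed z of the deposited p minus shift/SE, with Benjamini-Hochberg adjustment over the tested genes. This step was run on simulated data in which p followed from the change and its SE. The deposited changes and SE are shrunken, so the simulation does not show how the step performs on them. Intervals are ± 1.96 SE. Positions came from GENCODE M21 (GRCm38), which placed all 47 members. Promoters came from RefSeq. Computation used Python 3.11.15 (pandas 2.3.3, numpy 2.4.6, scipy 1.17.1, matplotlib 3.10.9). The labels name replicates without saying that they were separate cultures, so p-values may measure technical spread.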

Additional observations from a re-analysis of the deposited data

How the results depend on the processing

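With 0 lower Mediator genes and 2 lower Integrator genes, the counts of lower members did not move under any alternative run. For Mediator, most alternatives could hardly add a lower gene. Both recentrings raised every value, and the threshold of 0.01 and dropping the filter on low counts made calls harder. The 2 subsets only left genes out. Only the threshold of 0.1 and the adjustment among genes with a mean count of at least 100 made a lower call easier. The median of Mediator, 0.07, became 0.12 when recentred on genes with a mean count of at least 100, 0.26 with the housekeeping zero point and 0.044 without Med12l, Med13l and Cdk19. That of Integrator, 0.06, became 0.11 and 0.25 with these zero points. Recentring moves all genes by the same amount. With these 2 zero points, 8.5% and 13.8% of all tested genes were called higher, and 11.2% and 8.84% lower. The 2 higher Mediator genes became 4 when recentred on genes with a mean count of at least 100 (Med19, Med27 added), 9 when recentred on the housekeeping genes (Med19, Med27, Med25, Med31, Ccnc, Med13l, Med12l added) and 4 at a threshold of 0.1. They also became 4 when the p-values were adjusted again among genes with a mean count of at least 100 only. With the authors' adjustment over all tested genes, 2 were called at this level. They became 1 at a threshold of 0.01, 1 without the filter on low counts, 1 in the core without the kinase module and 1 without Med12l, Med13l and Cdk19. The last 2 sets leave out Cdk19, so their fall to 1 was fixed by the choice of genes. The 1 higher Integrator gene became 2 (Ints9 added) with the housekeeping zero point and 0 at a threshold of 0.01. Cdk19 was called higher wherever it was counted. Under the housekeeping zero point, p-values recentred from those of DESeq2 and adjusted over all tested genes were 0.028 for Ints6 and 0.029 for Ints7. No paired analysis was possible because values per library were not in the table, and leaving out single libraries was not run for the same reason. Depth per library is unknown, and members with few reads, such as Med26 and Med12, have wide intervals.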

Other observations

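Other genes of the polymerase II machinery were looked at beside both complexes, with the authors' DESeq2 adjusted p as the test. Of 30 tested genes of general transcription factors, 1 fell and 2 rose (10%, beside 19.9% of all tested genes and 27.6% of those with a mean count of at least 100, among which 28 of the 30 lie), with a median log2 fold change of 0.12. Taf10, a subunit that TFIID shares with the SAGA coactivator, had -0.51 ± 0.16 (SE, adjusted p = 0.0051). Taf12 had 0.53 ± 0.19 (adjusted p = 0.013) and Taf13 had 0.52 ± 0.19 (adjusted p = 0.015), both histone-fold subunits of TFIID. With changes recentred on the housekeeping genes, Taf10 lost its call (adjusted p = 0.087) and 7 genes were higher, beside 13.8% of all tested genes.

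Of 20 cleavage and polyadenylation factors, which form the ends of messenger RNAs, 2 fell and 0 passed the DESeq2 threshold towards higher RNA, where 1 had an unadjusted p under 0.05. The share called was 10%, beside 19.9% of all tested genes. It was 27.6% among those with a mean count of at least 100, where 17 of the 20 lie. Both genes that fell belong to the cleavage stimulation factor, Cstf2 at -0.64 ± 0.20 (adjusted p = 0.0039) and Cstf1 at -0.62 ± 0.20 (adjusted p = 0.0057). The median of the list was -0.14, and it was 0.05 with the housekeeping zero point, where Cstf2 (adjusted p = 0.046) and not Cstf1 (adjusted p = 0.057) was called lower and Clp1 (adjusted p = 0.023) was called higher.

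Of 11 factors that activate snRNA genes, whose transcripts Integrator processes, 2 rose and 0 passed the DESeq2 threshold towards lower RNA, with 0 lower at an unadjusted p under 0.05. The share called was 18.2%, beside 19.9% of all tested genes. It was 27.6% among those with a mean count of at least 100, where all 11 lie. Ell2, an elongation factor, had 1.18 ± 0.18 (adjusted p = 1.0e-10), and Snapc1, a subunit of the complex that binds snRNA promoters, had 0.52 ± 0.18 (adjusted p = 0.014). The values of the other 9 ranged from -0.33 for Ice2 to 0.41 for Snapc3 (adjusted p = 0.094), and the median of the list was 0.03. With the housekeeping zero point, 4 genes were higher, Snapc3 (adjusted p = 0.0095) and Pou2f1 (adjusted p = 0.048) being added, and the median was 0.21. Of all tested genes, 13.8% were called higher with that zero point.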
